A study of Mus musculus with 4 samples.

Results

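Teneurins, latrophilins and FLRTs are 3 families of cell-surface proteins that bind each other across the gap between neighbouring cells. The genes described here are the 4 teneurins (Tenm1, Tenm2, Tenm3 and Tenm4), the 3 latrophilins (Adgrl1, Adgrl2 and Adgrl3) and the 3 FLRTs (Flrt1, Flrt2 and Flrt3) of the mouse, taken as whole families by name. All 10 were found among the 45706 features of the count files, and all 10 passed the filter on low counts in both models. Nuclei came from the dentate gyrus of mice with a tamoxifen-inducible Cre and the reporter CAGfloxStop-Sun1/sfGFP, which puts GFP on the nuclear envelope. Only cells in which the Cre was active and their progeny were marked, and these included astrocytes and oligodendrocyte-lineage cells. GFP+ nuclei were sorted and sequenced 1, 2, 4 and 8 weeks after tamoxifen (libraries w1, w2, w4 and w8), each library being 1 pool of 4 left dentate gyri from male and female mice. Each week was therefore represented by 1 library, and no test between weeks was made. The study processed 2 time points per day, on days that the sources used here do not give.

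The libraries held 14367 nuclei of the authors' quality, from 2867 in w1 to 4243 in w2, with 13227971 to 28595331 unique molecular identifiers (UMIs, counted RNA molecules) per library. Median UMIs per nucleus were 4369, 5053, 6239 and 7703.5 in w1, w2, w4 and w8. By UMIs of sex-linked genes, 1628 nuclei of w1 were called male and 788 female. In w2 these counts were 1278 and 2729, in w4 659 and 2995, and in w8 2650 and 419. The authors' clusters follow radial glia-like stem cells (RGL), progenitors (NPC), neuroblasts (NB1 and NB2), immature (GCimm1 and GCimm2), young (GCyoung) and mature granule cells (GCmat1 and GCmat2), beside astrocytes (Astro), oligodendrocyte precursors (OPC), oligodendrocytes (Oligo) and pericyte-labelled nuclei (Peri). All 3 markers listed for each of astrocytes, NPC, OPC, oligodendrocytes and pericytes peaked in the cluster so named, and 2 of 3 did so for RGL, Lpar1 being highest in Peri. The neuronal lists were less distinct. Of the neuroblast markers Calb2 and Tac2 were highest in NB2 and Dcx in NB1. Of those of immature granule cells Rgs6 was highest in GCimm1, but Dcx and Igfbpl1 in NB1, and of those of mature granule cells Calb1 was highest in GCmat1, Ntng1 in GCmat2 and Icam5 in GCyoung. Summed markers of microglia reached 22.1 to 55.6 CPM (UMIs per 1000000 UMIs) across clusters, those of endothelium 0 to 50.4, of interneurons 2.98 to 94.2, of pyramidal cells 3.78 to 28.4 and of mossy cells 0 to 290. Of the barcodes kept, 22 occurred in more than 1 library.

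Teneurins are very large single-pass proteins whose outer part folds into a barrel, and they are known for matching axons to their targets in visual and hippocampal circuits. Latrophilins are adhesion G-protein-coupled receptors, the first of which was found as a receptor of black widow spider toxin, and in the hippocampus they act on the receiving side of synapses by binding teneurins and FLRTs together. FLRTs carry leucine-rich repeats and a fibronectin domain, bind latrophilins, and can also repel neurons that carry Unc5 receptors.

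The genes are long: Tenm2 spans chr11:36006656-37235964 on the minus strand of GRCm38, Tenm4 chr7:96171246-96911093 on the plus strand, and Adgrl3 chr5:81020138-81825133 on the plus strand, whereas Flrt1 spans chr19:7092001-7105729 on the minus strand and Flrt3 chr2:140650914-140671469 on the minus strand. Of the 10 genes, 9 had a RefSeq start site in the promoter table of GRCm38.p6. For 4 of them, this start lay within 7 bases of the outermost start in the GENCODE annotation, and the 150 bases before it are shown because these 4 genes range from the one with the most changes along the trajectory, Tenm4, to one that changed at none of its steps, Adgrl1. Capitals mark the E-box letters CANNTG, which read the same on both strands, and each sequence runs 5′ to 3′ on the gene's strand.
Tenm4: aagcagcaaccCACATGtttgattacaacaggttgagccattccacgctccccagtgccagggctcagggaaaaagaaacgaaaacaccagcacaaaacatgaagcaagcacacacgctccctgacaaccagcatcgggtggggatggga
Adgrl1: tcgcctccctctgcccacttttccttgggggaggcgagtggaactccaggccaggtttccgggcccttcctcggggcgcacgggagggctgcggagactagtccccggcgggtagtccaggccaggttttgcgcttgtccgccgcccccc
Flrt2: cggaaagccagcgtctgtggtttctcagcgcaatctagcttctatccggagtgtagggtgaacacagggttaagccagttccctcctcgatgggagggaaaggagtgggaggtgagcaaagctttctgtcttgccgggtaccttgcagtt
Flrt3: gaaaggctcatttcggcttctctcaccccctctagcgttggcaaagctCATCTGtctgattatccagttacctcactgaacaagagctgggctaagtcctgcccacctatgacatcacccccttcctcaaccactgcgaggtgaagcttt
The window of Tenm4 lies at chr7:96171094-96171243 (plus), that of Adgrl1 at chr8:83899948-83900097 (plus), that of Flrt2 at chr12:95692076-95692225 (plus) and that of Flrt3 at chr2:140671477-140671626 (minus). One E-box stood 139 bases before the start of Tenm4 and one 102 bases before that of Flrt3, and 47.7% of the 32851 promoter windows of this length held at least 1. The Adgrl1 window held 12 CpG dinucleotides and 70.0% G or C, against 4 and 52.7% for Tenm4, 6 and 54.7% for Flrt2, and 3 and 52.0% for Flrt3. UMIs were read from the 3′ end of RNAs, so that the start in use was not measured.

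Levels are given as CPM over the nuclei of a cluster, pooled over libraries or per library, and they are not corrected for gene length, so that they are compared between clusters and not between genes. A gene was called changed between 2 clusters when its fold was 1.5 or more and its adjusted p 0.05 or less, in edgeR's quasi-likelihood test on UMI sums per cluster and library with at least 10 nuclei, with Benjamini-Hochberg adjustment over all genes tested. The clusters were built by the authors from the expression of the same nuclei, so that these p-values only set a difference between clusters against the spread between sums. That spread was estimated over all sums of a model, not only those of the 2 clusters compared. The cluster and library terms were also fitted over all sums. A log2 change is therefore not only a difference within the libraries that hold both clusters. Both the change and its call can move when a library that lacks 1 of the 2 clusters is left out. Sums of different clusters from 1 library also share that library. Folds and log2 changes printed with an SE or an adjusted p come from the fitted models, which rescale the sums (TMM in the main models). The CPM beside them are not rescaled, so that ratios of CPM can differ from these folds.

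Along the trajectory, most of the 10 genes were called at the steps into and out of the progenitors, where many other genes were called as well. From RGL to NPC, 6 of 10 were called (3 rose and 3 fell), where 29.5% of all genes tested were called. From NPC to NB1, 7 of 10 were called (4 rose and 3 fell), beside 29.3% of all genes. From NB1 to NB2, 3 of 10 were called (2 rose and 1 fell), beside 2.94% of all genes. From NB1 to GCimm1, 4 of 10 were called, beside 12.5%, and from GCimm1 to GCimm2 again 4 of 10, beside 9.43%, with 2 up and 2 down at each. From GCimm2 to GCyoung, 5 of 10 were called (2 rose and 3 fell), beside 18.9%. From GCyoung to GCmat1, 2 of 10 were called (1 rose and 1 fell), beside 3.85%, and from GCmat1 to GCmat2 2 of 10 rose, beside 7.30%. Between astrocytes and RGL, edgeR called 0 of 10, beside 9.58% of all genes; 1 of 10 had an unadjusted p under 0.05, and DESeq2 called 1, Flrt1.

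**Figure D1:**
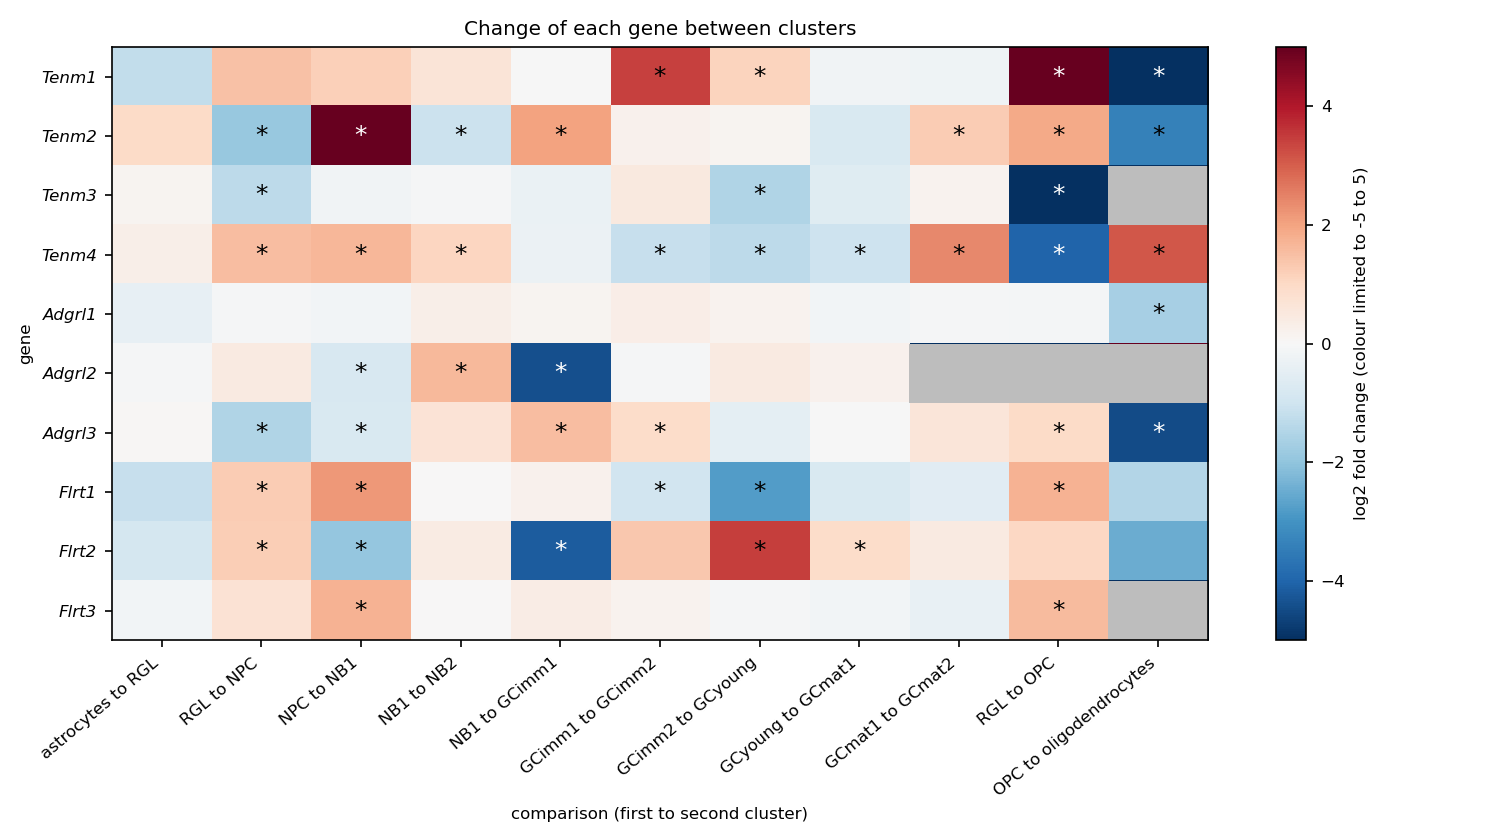
Log2 fold change of each of the 10 genes (rows) in each tested comparison (columns), with red for higher and blue for lower in the second cluster. Stars mark genes called at a fold of at least 1.5 and an adjusted p of at most 0.05, and grey marks comparisons in which a cluster held no UMI of the gene in the libraries fitted or both held at most 3. Grey cells carry no star, although Adgrl2 from RGL to OPC and Tenm3 and Flrt3 from OPC to oligodendrocytes were called. Tenm4 carries 7 stars among the first 9 columns and Adgrl1 none.

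The 4 teneurins occupied different stretches of the trajectory. Tenm3 was highest in RGL, Tenm4 in neuroblasts, Tenm2 from GCimm1 onward and Tenm1 from GCyoung onward.

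Tenm3, known for its part in sorting hippocampal projections, was at 1017, 854, 943 and 1163 CPM in RGL (w1 to w8). In NPC it was at 463, 450 and 537 in w1, w2 and w4. Every NPC library was below every RGL library, and the log2 change was -1.29 ± 0.19 (SE from the whole model, 3 libraries with both clusters, adjusted p = 1.8e-07). The pooled level then went from 466 CPM in NPC to 376 in NB1, 393 in NB2 and 236 in GCimm1, with no call at these steps. In GCimm2 it was at 290, 304 and 413 in w2, w4 and w8, and in GCyoung at 80.1 and 136 in w4 and w8. The latter values were again all below the former, and Tenm3 fell by 1.52 ± 0.22 on the log2 scale (adjusted p = 3.0e-07). A UMI of Tenm3 was found in 92.4% of RGL nuclei (95% exact interval 90.8 to 93.7) and in 35.3% of GCmat1 nuclei (33.7 to 37.0), at median depths of 4091 and 8138 UMIs. At an equal depth of 2000 UMIs per nucleus these shares were 77.3% and 13.3%. Intervals of shares and levels cover counting error only.

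Tenm4, which in other tissues guides the differentiation of oligodendrocytes and muscle precursors, was called at 7 of the 9 comparisons of the trajectory model. It rose from 173, 152, 136 and 153 CPM in RGL of w1, w2, w4 and w8 to 531, 505 and 603 in NPC of w1, w2 and w4. The log2 change was 1.56 ± 0.27 (adjusted p = 5.1e-06), with all NPC libraries above all RGL libraries. In NB1 it reached 1411, 1165 and 1571 CPM in the same 3 libraries, a further log2 rise of 1.65 ± 0.27 (adjusted p = 2.4e-06). NB2 held the highest level of any cluster, at 3361, 2458 and 3369 CPM. No NB2 library overlapped the NB1 range, and the log2 change from NB1 to NB2 was 1.09 ± 0.25 (adjusted p = 0.0044), a call lost without w1 (0.96 ± 0.28, adjusted p = 0.11), without w2 (1.09 ± 0.33, adjusted p = 0.072) or without the library term. A Tenm4 UMI was present in 100% of NB2 nuclei (99.5 to 100) and in 48.8% of NPC nuclei (41.9 to 55.8).

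The decline of Tenm4 was spread over several steps. The levels were 1238, 1079 and 787 CPM in GCimm1 (w1, w2, w4), which was not called against NB1 (log2 change -0.31 ± 0.25, adjusted p = 0.53). They were 496, 445 and 300 in GCimm2 (w2, w4, w8), and Tenm4 fell by 1.14 ± 0.26 (adjusted p = 0.0013). In GCyoung they were 118 and 224 (w4, w8), a fall of 1.32 ± 0.31 on the log2 scale (adjusted p = 9.3e-04), lost without w4 (-0.75 ± 0.43, adjusted p = 0.51), which leaves w8 as the only library with both clusters. From GCyoung to GCmat1 it fell by 1.03 ± 0.30 (adjusted p = 0.033), from 118 to 33.3 CPM in w4 and from 224 to 147 in w8, while the level pooled over libraries was 128 and 133, where 1979 of 2176 GCyoung nuclei came from w4 and 2927 of 3356 GCmat1 nuclei from w8. This call was lost without w1 (-0.87 ± 0.28, adjusted p = 0.072) and without w4 (-0.87 ± 0.38), which leaves w8 alone with both clusters. It was also lost without the library term (-0.95 ± 0.37, adjusted p = 0.26) and with at least 20 nuclei per sum required (-0.87 ± 0.28, adjusted p = 0.074). The same held with DESeq2, at 2000 UMIs per nucleus and in male nuclei alone. Tenm4 was higher in GCmat2 than in GCmat1, at 374 and 518 CPM in w4 and w8 (log2 change 2.41 ± 0.31, adjusted p = 3.5e-08). The call was kept under all 14 alternatives that gave a value, but neither male nor female nuclei alone gave one.

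Tenm2, a teneurin known as a latrophilin ligand at synapses, had the largest change of the 10 genes at any step of the trajectory, from NPC to NB1. It stood at 66.1, 107, 135 and 127 CPM in RGL (w1 to w8) and at 18.0, 43.1 and 52.4 in NPC. The ranges did not overlap, and Tenm2 fell by 1.90 ± 0.45 (adjusted p = 7.6e-04), a call lost in female nuclei alone (-1.48 ± 0.56, adjusted p = 0.058). A Tenm2 UMI was in 22.4% of RGL nuclei (20.2 to 24.6), against 11.1% (3.71 to 24.1) of oligodendrocyte nuclei, at median depths of 4091 and 4801 UMIs, and at 2000 UMIs per nucleus the shares were 13.6% and 11.1%. In NB1 it reached 1226, 1596 and 1037 CPM, 48.1-fold above NPC (log2 change 5.59 ± 0.42, adjusted p = 4.0e-16). NB2 lay lower than NB1, at 617, 754 and 333 CPM, with no overlap (-1.06 ± 0.28, adjusted p = 0.018), a call lost without w2 (-1.10 ± 0.37, adjusted p = 0.16), without w4 (-0.99 ± 0.32, adjusted p = 0.089), without the library term, with DESeq2, and with at least 20 or at least 30 nuclei per sum required (-0.75 ± 0.23 in both, adjusted p = 0.075 and 0.08). GCimm1 held 3809, 4363 and 6660 CPM (w1, w2, w4), 4.07-fold above NB1 (log2 change 2.02 ± 0.28, adjusted p = 1.1e-07). From there to GCmat1 no further step was called. GCmat2 was at 8503 CPM in w4 and 8629 in w8, against 2414 and 4644 in GCmat1 of the same libraries (log2 change 1.26 ± 0.30, adjusted p = 0.0031). Without w4, which leaves w8 alone with both clusters, this call was lost (0.87 ± 0.40, adjusted p = 0.35). Within a cluster Tenm2 also differed between libraries: GCimm2 stood at 4349 CPM in w2, 7129 in w4 and 7941 in w8.

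Tenm1, the X-linked teneurin, was low up to GCimm1 and rose after it. It was at 2.17, 4.70, 14.0 and 15.9 CPM in RGL, and between 10.7 and 70.8 CPM in GCimm1. In GCimm2 it was at 331, 447 and 886 CPM in w2, w4 and w8, all above every GCimm1 library. The change was 10.5-fold (log2 3.40 ± 0.27, adjusted p = 2.7e-14) and was called under every alternative. GCyoung held 976 and 1131 CPM in w4 and w8, above GCimm2 of the same libraries (log2 change 1.10 ± 0.25, adjusted p = 7.7e-04), a call lost with DESeq2 and without w4 (0.79 ± 0.33, adjusted p = 0.23). GCmat1 (403, 979 and 861 CPM in w1, w4 and w8) and GCmat2 (855 and 818 in w4 and w8) were not called against the cluster before them. The share of nuclei with a Tenm1 UMI was 10.4% (9.22 to 11.7) in GCimm1, 59.9% (56.7 to 62.9) in GCimm2 and 96.8% (96.0 to 97.5) in GCyoung. At 2000 UMIs per nucleus it was 5.59%, 39.6% and 78.5%. Over all nuclei of a library, Tenm1 was at 36.4, 104, 790 and 860 CPM in w1, w2, w4 and w8, in the same order as its low values in RGL. The part of RNA from other cells in those low values was not tested.

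**Figure D2:**
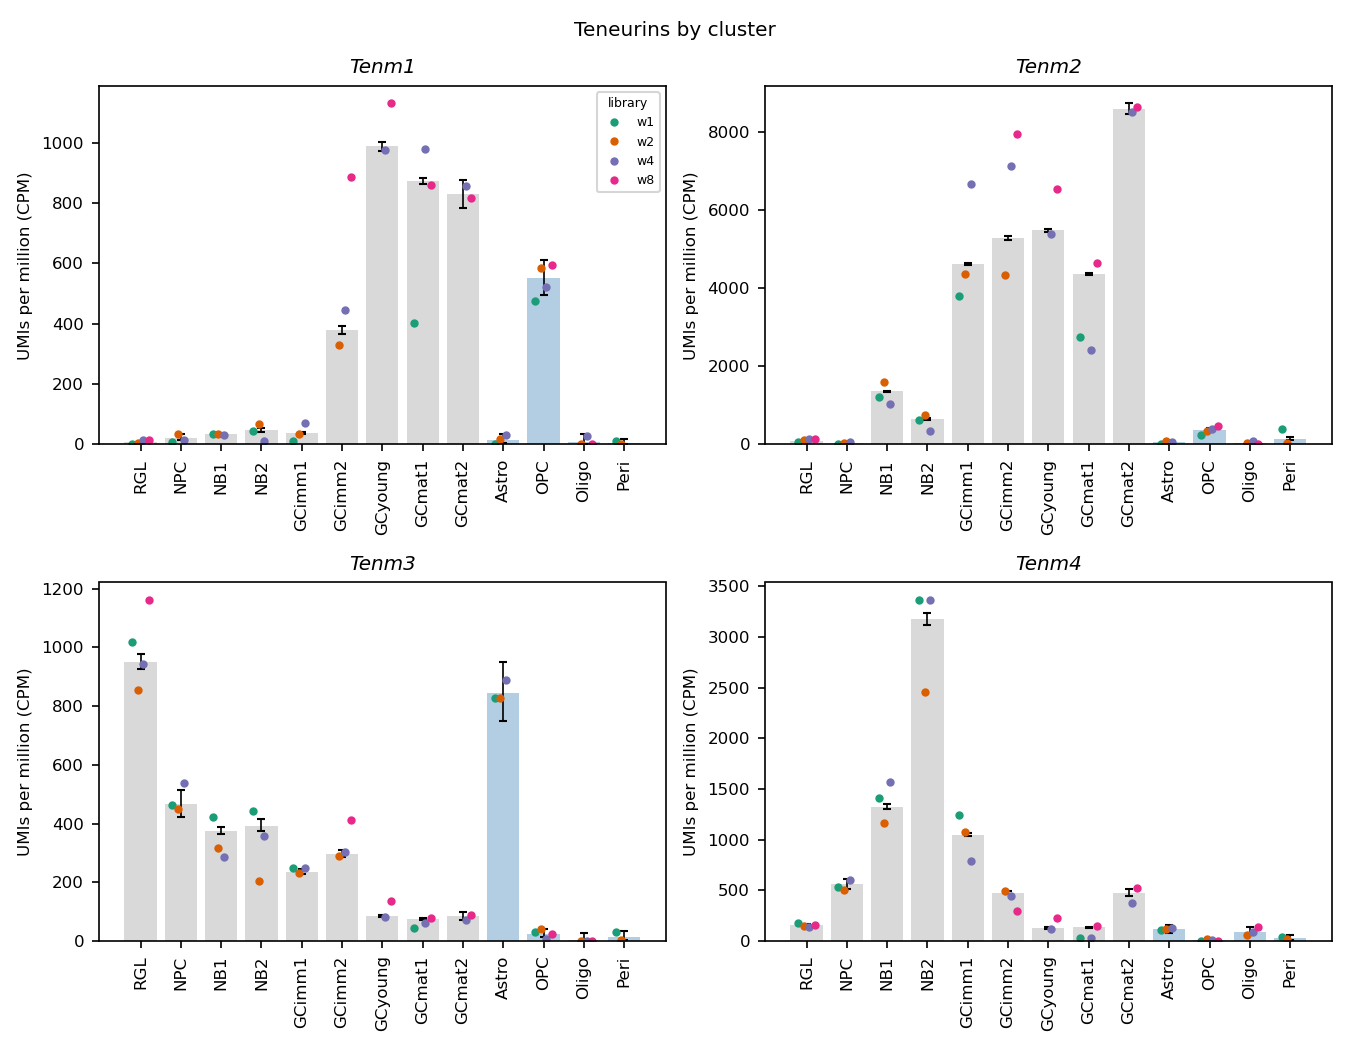
Level of the 4 teneurins (CPM, linear axes) in 9 trajectory clusters (grey bars) and 4 other clusters (blue bars). Bars pool the libraries, error bars are 95% Poisson intervals of counting error, and points are single libraries with at least 10 nuclei. Tenm3 peaks in RGL (951), Tenm4 in NB2 (3177), Tenm2 in GCmat2 (8592) and Tenm1 in GCyoung (988).

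The 3 latrophilins behaved unlike each other. Adgrl1 was not called at any step, Adgrl2 fell at the step from NB1 to GCimm1, and Adgrl3 was, within the trajectory, lowest in NB1.

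Adgrl1, the latrotoxin receptor, was not called at any of the 9 comparisons of the trajectory model. In the trajectory, pooled levels ran from 90.1 CPM in GCmat1 to 137 in NPC, and in the order of all clusters by level each neighbouring pair overlapped in its library ranges down to GCmat1. Its log2 changes lay between -0.40 ± 0.25 (RGL against astrocytes) and 0.35 ± 0.16 (GCimm2 against GCimm1). The share of nuclei with an Adgrl1 UMI went from 37.1% in RGL to 51.8% in GCmat1, but at 2000 UMIs per nucleus it was 19.7% and 17.3%.

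Adgrl2 was at 39.6, 46.0, 43.4 and 28.7 CPM in RGL (w1 to w8), at 84.2, 58.5 and 52.4 in NPC, and at 37.9, 33.5 and 22.4 in NB1 (w1, w2, w4). The NB1 libraries were all below the NPC libraries (log2 change -0.79 ± 0.28, adjusted p = 0.03), but the call was lost under 8 of 16 alternatives, among them without w1 (-0.57 ± 0.46, adjusted p = 0.45), DESeq2 and no filter on low counts. The NPC sum of w1, with the highest Adgrl2 level, was also the one with the most endothelial marker RNA (Flt1, Cldn5 and Pecam1), at 84.2 CPM beside 9.24 and 13.1 in w2 and w4. The share of NPC nuclei with any UMI of these markers was 3.57%, 4.00% and 4.55% in w1, w2 and w4. The part of such nuclei in the Adgrl2 level was not tested. NB2 held 97.2, 91.6 and 256 CPM, above every NB1 library (log2 change 1.62 ± 0.21, adjusted p = 1.9e-07). The 256 CPM of w4 rest on 20 UMIs in 18 nuclei. In GCimm1 there were 0 UMIs in w1, 19 in w2 (1.74 CPM) and 0 in w4. Adgrl2 fell by 4.41 ± 0.34 on the log2 scale from NB1 to GCimm1 (adjusted p = 8.5e-15), a call kept under every alternative. It was as low in the later granule cell clusters, with 1.20 CPM in GCimm2, 1.39 in GCyoung, 1.03 in GCmat1, and 0 UMIs in GCmat2, where 3 UMIs would be 1.92 CPM. The share of nuclei with an Adgrl2 UMI fell from 22.6% (19.6 to 25.8) in NB2 to 0.614% (0.344 to 1.01) in GCimm1, where it was 0.123% at 2000 UMIs per nucleus.

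Adgrl3, a latrophilin studied in attention-deficit disorder, was at 1643, 1276, 1406 and 1600 CPM in RGL (w1 to w8) and at 609, 518 and 944 in NPC. It fell by 1.49 ± 0.23 (adjusted p = 7.7e-07), with no overlap. NB1 held 294, 318 and 356 CPM, again all below NPC (log2 change -0.76 ± 0.24, adjusted p = 0.013), a call lost without w4 (-0.63 ± 0.30, adjusted p = 0.11) and in female nuclei alone. It was higher in NB2 (548, 558 and 372 CPM), which was not called (0.70 ± 0.24, adjusted p = 0.11) but was called under 5 alternatives, among them RLE size factors (0.78 ± 0.22, adjusted p = 0.034) and 2000 UMIs per nucleus (0.84 ± 0.22, adjusted p = 0.01). In GCimm1 it reached 489, 998 and 1040 CPM in w1, w2 and w4, a log2 rise of 1.53 ± 0.23 (adjusted p = 7.1e-07). GCimm2 held 1571, 1370 and 1592 CPM in w2, w4 and w8 (log2 change 0.92 ± 0.23, adjusted p = 0.0034), lost without w2 (0.97 ± 0.31, adjusted p = 0.08) and in female nuclei alone. GCyoung (899 and 912 CPM in w4 and w8) lay below every GCimm2 library but was not called (-0.47 ± 0.26, adjusted p = 0.22), nor were later steps. Along the trajectory the dip thus went from 1460 CPM in RGL through 306 in NB1 to 1509 in GCimm2.

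**Figure D3:**
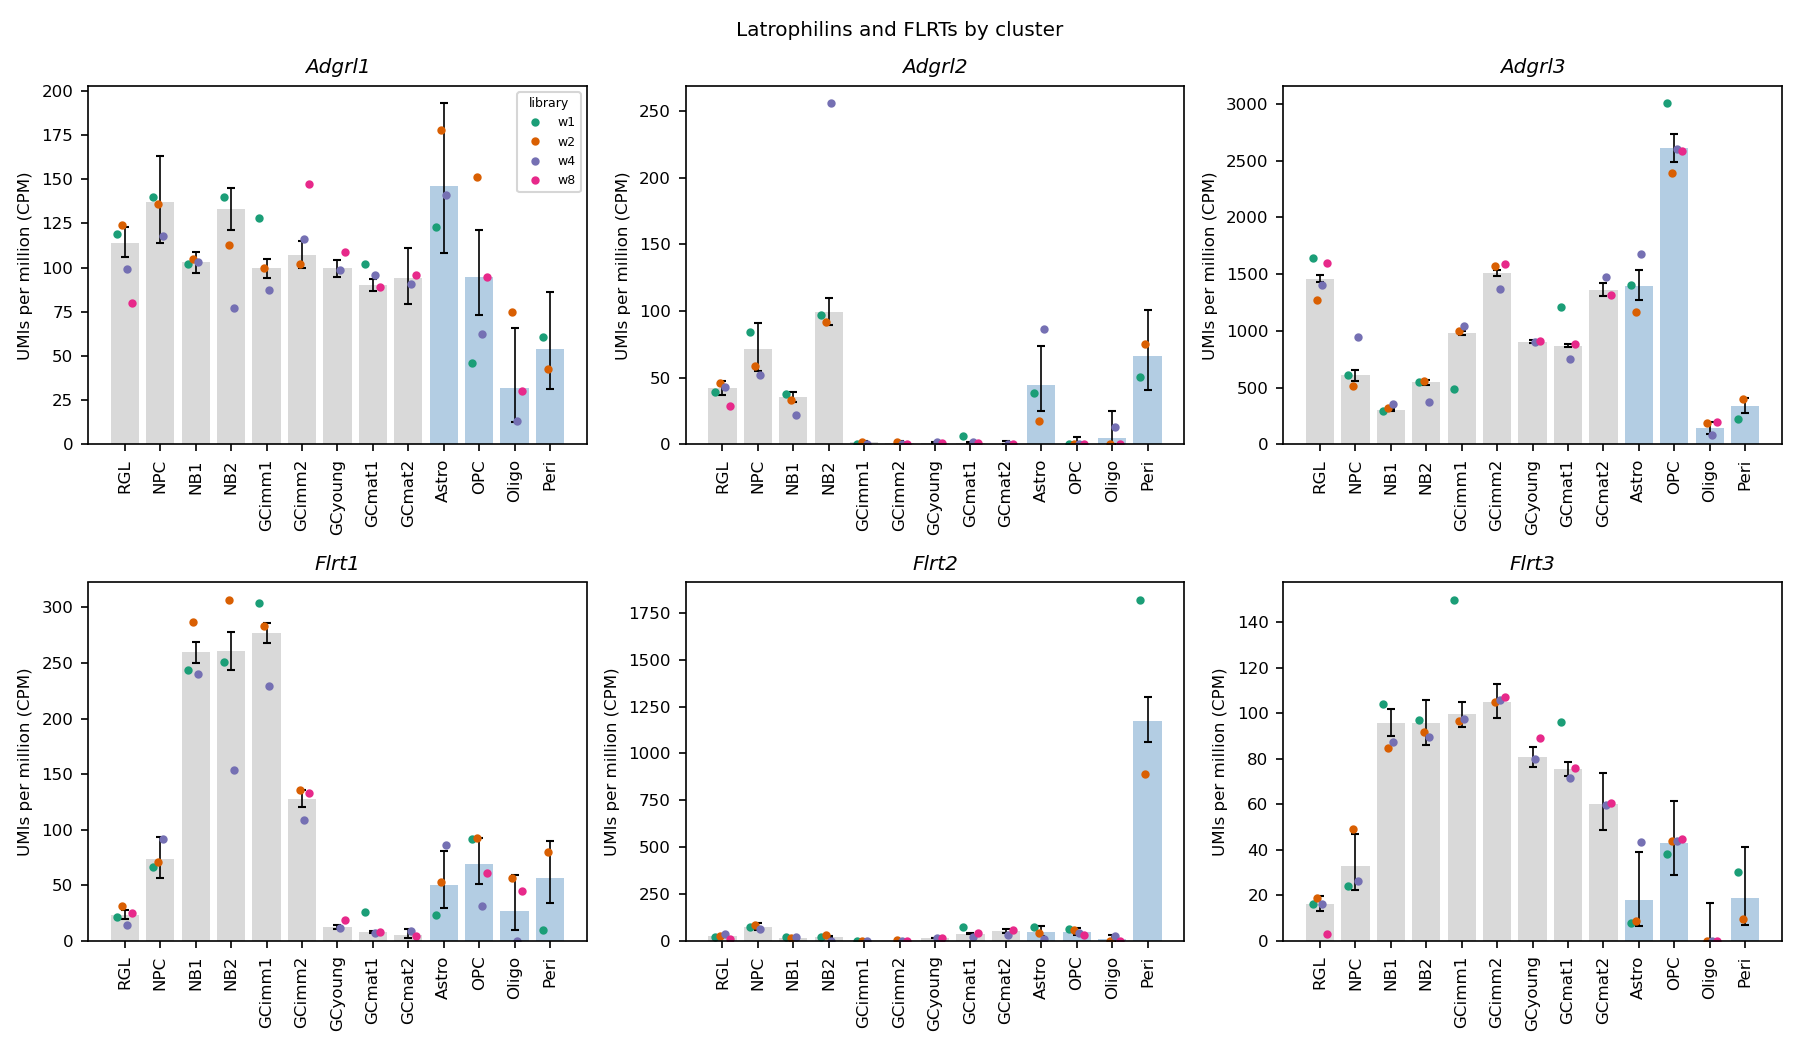
Level of the 3 latrophilins and 3 FLRTs (CPM, linear axes, each panel on its own scale), drawn as in the teneurin plot. Adgrl2 drops from 99.4 in NB2 to 1.44 in GCimm1, Flrt1 from 277 in GCimm1 to 12.3 in GCyoung, and Flrt2 stands out in the pericyte-labelled nuclei (1175).

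Flrt1 and Flrt3 both rose from NPC to NB1, and Flrt2 fell at that step. Flrt1 was at 21.3, 31.5, 14.0 and 25.5 CPM in RGL (w1 to w8) and at 66.1, 70.9 and 91.7 in NPC. The log2 rise was 1.28 ± 0.28 (adjusted p = 2.6e-04), lost in male and in female nuclei alone. In NB1 it stood at 244, 287 and 240 CPM, a fold of 4.45 over NPC in the model (log2 change 2.16 ± 0.23, adjusted p = 2.4e-11). NB2 (251, 307 and 154 CPM) and GCimm1 (304, 283 and 229) were not called against NB1. GCimm2 then held 136, 109 and 133 CPM in w2, w4 and w8, below all GCimm1 libraries (log2 change -0.95 ± 0.17, adjusted p = 2.2e-05). GCyoung held 11.6 and 18.8 CPM in w4 and w8, in the model 6.95-fold below GCimm2 (log2 change -2.80 ± 0.23, adjusted p = 4.5e-14). A Flrt1 UMI was present in 60.0%, 66.4% and 73.1% of NB1, NB2 and GCimm1 nuclei and in 8.50% of GCyoung nuclei, and at 2000 UMIs per nucleus in 38.8%, 38.2%, 41.3% and 2.57%.

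Flrt3, an FLRT that binds both latrophilins and Robo1, was at 16.1, 18.8, 16.2 and 3.19 CPM in RGL, the last value from 1 UMI. It stood at 24.0, 49.3 and 26.2 in NPC, which was not called against RGL (0.72 ± 0.35, adjusted p = 0.12). NB1 held 104, 84.6 and 87.4 CPM, above every NPC library (log2 change 1.74 ± 0.28, adjusted p = 1.1e-06, kept under every alternative). No later step was called, and the pooled level went from 105 CPM in GCimm2 to 60.2 in GCmat2.

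Flrt2, an FLRT that repels Unc5d-bearing cells in the developing cortex, was nearly absent from GCimm1 and GCimm2. It was at 20.4, 28.7, 34.6 and 12.7 CPM in RGL and at 72.1, 86.3 and 65.5 in NPC, a log2 rise of 1.22 ± 0.32 (adjusted p = 0.0024), lost without w1 (1.12 ± 0.42, adjusted p = 0.053), with DESeq2 and in female nuclei alone. The same endothelial markers summed to 84.2 CPM in NPC of w1, in 3.57% of its nuclei, 34 of their 42 UMIs being Flt1, beside 5.65 to 6.58 in the RGL libraries. Their part in the Flrt2 level was not tested. In NB1 Flrt2 was at 19.6 and 20.2 CPM in w1 and w4, and lower still in w2 on 53 UMIs (log2 change -1.93 ± 0.33, adjusted p = 3.8e-06). GCimm1 held 0, 11 and 0 UMIs in w1, w2 and w4, and Flrt2 fell by 4.16 ± 0.46 (adjusted p = 2.9e-10). It returned in GCyoung, at 15.1 and 17.4 CPM in w4 and w8, against 0.863 (2 UMIs) and 0 in GCimm2 of these libraries (log2 change 3.45 ± 0.47, adjusted p = 6.6e-08). From GCyoung to GCmat1 it rose by a log2 change of 0.93 ± 0.26 (adjusted p = 0.026), to 20.5 and 40.1 CPM, a call lost under 8 of 16 alternatives, among them without w8 (0.66 ± 0.34, adjusted p = 0.7) and DESeq2.

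Adgrl2 and Flrt2 thus fell at the same step, from NB1 to GCimm1, and Flrt2 was called again later, upward. Both were already lower in bins rich in NB1 nuclei when nuclei were ordered by the authors' pseudo-time, a position from 0 to about 32 that they assigned from RGL to GCmat1. In bins of 2 units, Adgrl2 went from 126 CPM at 10 to 12 to 30.8 at 12 to 14, 5.76 at 14 to 16 and 1.15 at 16 to 18. Flrt2 went from 47.8 through 6.05 and 0.678 to 1.28 in the same bins. NB1 was the most frequent cluster in the bins from 10 to 16 (81.8%, 75.7% and 44.9% of nuclei), with NB2 and, in the last, 551 GCimm1 nuclei beside it.

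Tenm4 declined over the bins in which Tenm2 climbed. Tenm4 was highest at 10 to 12, at 2722 CPM, and stood at 1627, 1059 and 1101 in the next 3 bins. Tenm2 climbed from 221 CPM at 10 to 12 through 991 and 3207 to 5007 at 16 to 18. Tenm1 stood at 77.5 CPM at 10 to 12 and at 10.7 at 14 to 16, and its level then rose through 36.0, 140 and 551 to 1251 at 24 to 26. Tenm2 was highest at 24 to 26 (8271 CPM), a bin of 98.2% GCyoung nuclei, and stood at 2800 at 28 to 30 and at 4823 at 30 to 32, where GCmat1 made up 79.8% and 99.7%. These profiles pool the libraries, which fill the bins unequally, and they are given without a test.

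**Figure D4:**
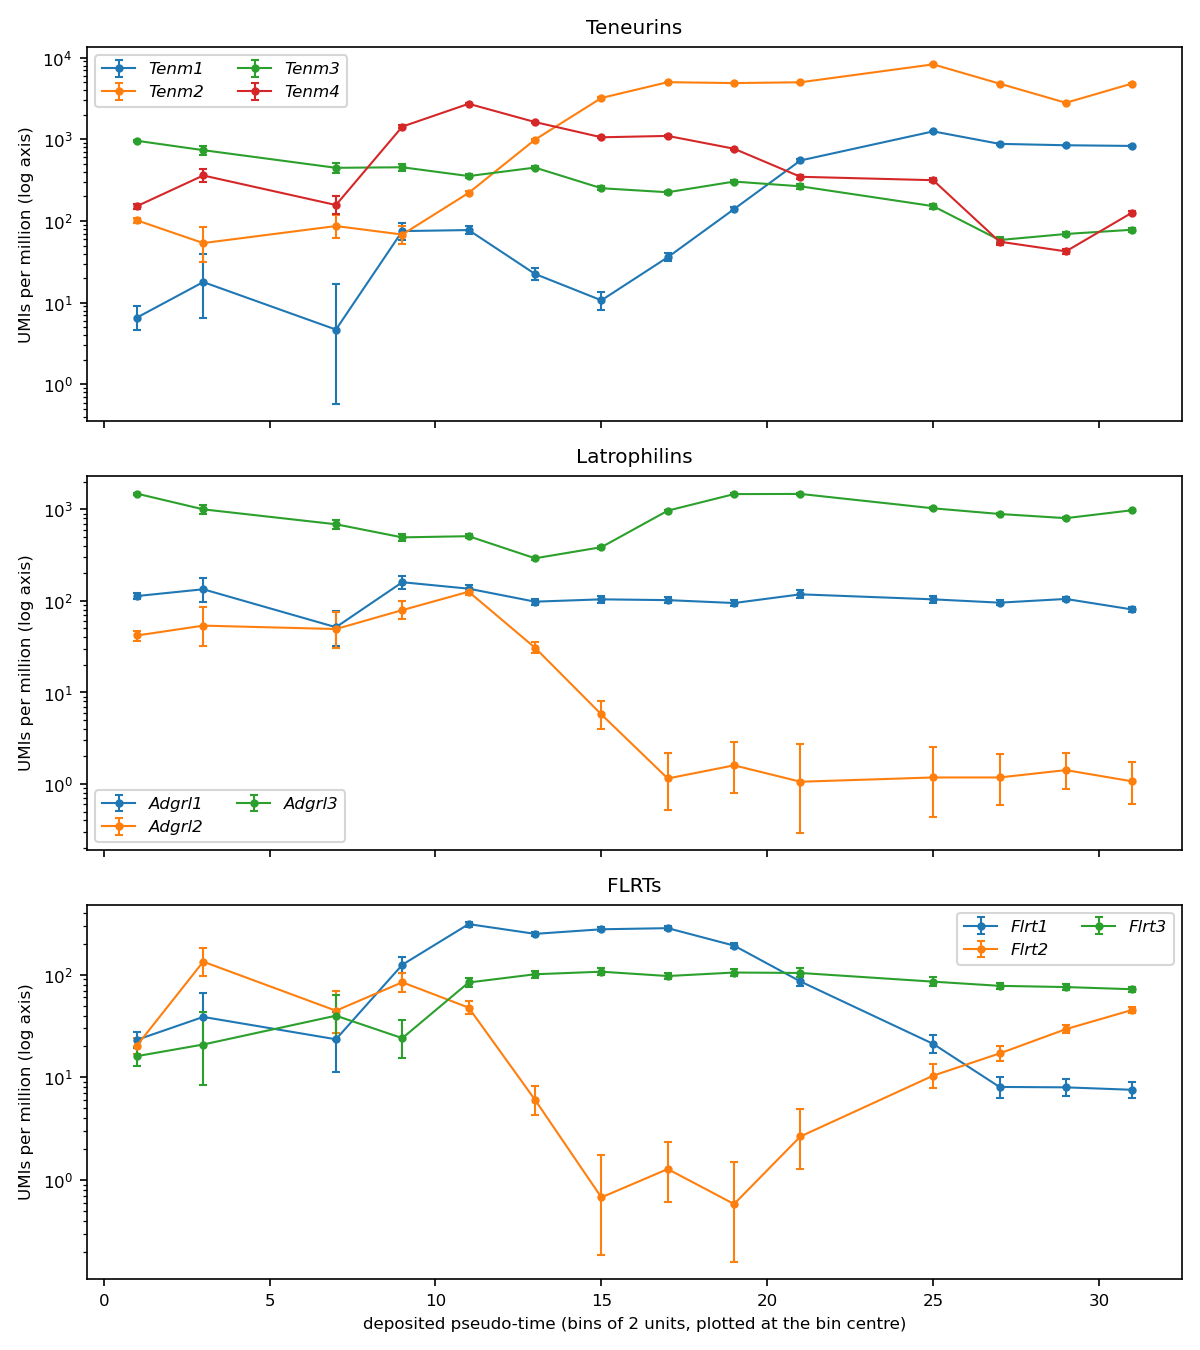
Level (CPM, log axis) of teneurins, latrophilins and FLRTs in bins of 2 pseudo-time units that hold at least 20 nuclei. Error bars are 95% Poisson intervals of counting error. Adgrl2 and Flrt2 fall between 10 and 16, where Tenm2 rises from 221 to 3207.

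In the glial clusters the same genes were distributed differently again. Astrocytes held Tenm3 at 827, 827 and 889 CPM and Adgrl3 at 1402, 1166 and 1680 in w1, w2 and w4, and edgeR called none of the 10 genes between them and RGL. Flrt1 was at 50.7 CPM in the 67 astrocyte nuclei and at 23.4 in RGL (log2 change -1.16 ± 0.45, adjusted p = 0.1 with edgeR), a difference that was called with DESeq2 (-1.40 ± 0.43, adjusted p = 0.017) and with RLE size factors (-1.37 ± 0.45, adjusted p = 0.046). From RGL to OPC 8 of 10 genes were called, 5 up and 3 down, where 27.8% of all genes were called.

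OPC carried Tenm1 at 475, 584, 520 and 596 CPM in w1, w2, w4 and w8, far above RGL in every library (log2 change 6.38 ± 0.32, adjusted p = 4.1e-25). Tenm2 was higher as well, at 230, 350, 401 and 462 CPM (log2 change 1.88 ± 0.32, adjusted p = 2.7e-06). Tenm3 went the other way, with 30.7, 38.9, 6.26 and 22.3 CPM (log2 change -5.16 ± 0.27, adjusted p = 1.1e-23). Tenm4 had only 6 UMIs in all OPC (8.89 CPM), against 156 CPM in RGL (log2 change -4.02 ± 0.54, adjusted p = 9.3e-09). Thus Tenm1 and Tenm2 were higher in OPC than in RGL, and Tenm3 and Tenm4 lower. Adgrl3 had its highest level of any cluster in OPC, at 3006, 2389, 2605 and 2584 CPM (0.97 ± 0.19 above RGL on the log2 scale, adjusted p = 3.6e-05). Adgrl2 was not found: 0 UMIs in 131 nuclei, where 3 UMIs would be 4.44 CPM, against 42.1 CPM in RGL, which was at least 9.48-fold higher. Flrt1 (3.30-fold, adjusted p = 1.8e-05) and Flrt3 (2.97-fold, adjusted p = 3.2e-04) were higher in OPC than in RGL, the latter call being lost at 2000 UMIs per nucleus. Flrt2 missed the threshold (2.04-fold, adjusted p = 0.051) but passed it under 5 alternatives, with adjusted p from 0.0089 without w4 to 0.04 in male nuclei alone, and Adgrl1 was not called (114 CPM in RGL and 94.8 in OPC, log2 change -0.08 ± 0.23, adjusted p = 0.86).

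From OPC to oligodendrocytes 7 of 10 were called, 6 down and 1 up, beside 18.5% of all genes, although only 10, 16 and 13 oligodendrocytes of w2, w4 and w8 entered the fit. Adgrl3 fell to 188, 78.9 and 195 CPM in w2, w4 and w8 (log2 change -4.48 ± 0.33, adjusted p = 1.6e-17). Tenm1 fell from 372 UMIs in OPC to 2 in oligodendrocytes, a ratio of 60.5 (16.6 to 502, counting error). Tenm2 went from 369 to 41.0 CPM (log2 change -3.38 ± 0.65, adjusted p = 4.5e-05). Tenm4 was the member that rose, from 8.89 CPM on 6 UMIs to 91.0 on 20 (log2 change 3.12 ± 0.85, adjusted p = 0.0047). The calls of Tenm4, Tenm3 (17 UMIs to 1), Adgrl1 (64 to 7) and Flrt3 (29 to 0) were lost at 2000 UMIs per nucleus, which left 3 called. Those of Adgrl1 and Tenm3 were also lost without w2, without w4 or without w8, at adjusted p values of 0.073, 0.18 and 0.14 for Adgrl1 and 0.13, 0.082 and 0.12 for Tenm3. The single Tenm3 UMI lay in a w1 sum of 6 nuclei outside the fit, and the ratio of OPC to oligodendrocytes was 5.53 (0.867 to 231, counting error). Flrt3 in OPC was at least 3.14-fold above the level that 3 UMIs would give in oligodendrocytes. Flrt1 (69.6 and 27.3 CPM, log2 change -1.45 ± 0.63, adjusted p = 0.11) and Flrt2 (33 and 2 UMIs, a ratio of 5.37, 1.37 to 46.2 by counting error, adjusted p = 0.093) were not called, nor was Adgrl2, with 0 UMIs in OPC and 1 in oligodendrocytes.

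Pericyte-labelled nuclei held the highest level of Flrt2, at 1821 CPM in w1 and 891 in w2, above every library of every other cluster. A Flrt2 UMI was found in 88.3% (77.4 to 95.2) of these 60 nuclei and in 18.5% (13.5 to 24.4) of NPC nuclei, the next highest cluster by level. Adgrl2 stood at 50.9 and 75.4 CPM there, while Tenm1 had 1 UMI. No comparison with this cluster was tested.

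GCmat1 also held 220 nuclei with no pseudo-time in the deposited table, 216 of them in w8. The study's methods left GCmat1 nuclei with a strong signal of ventral genes out of the ordering, but it counts more of them than the 220 found here, so that the 220 cannot be taken as that set. Whether any of the 10 genes served to choose nuclei for the ordering is not given in the sources used here. Within w8 these 216 nuclei (172 called male, 34 called female and 10 neither) could be set beside the 2711 others, as 1 library with no replicate and no test. Trhr, a marker of ventral granule cells, was at 55.5 CPM in them and at 1.61 in the others, and Lct, a dorsal marker, at 12.5 and 48.0. Of the 10 genes, 6 differed by at least 1.5-fold between these nuclei, and over all genes of at least 50 UMIs the share was 16.6%. Tenm4 was at 577 CPM against 103, a ratio of 5.63 (5.27 to 6.02, counting error only). Tenm2 was at 8976 against 4191 (2.14, 2.11 to 2.17) and Tenm1 at 1295 against 816 (1.59, 1.53 to 1.65). Flrt1 was also higher, on 29 UMIs (1.58, 1.03 to 2.36), but by less than 1.5-fold at 2000 UMIs per nucleus and in female nuclei alone (8.85 against 7.38 CPM). Adgrl3 was lower, at 466 against 925 (0.504, 0.474 to 0.535), and so was Flrt2, at 18.3 against 42.4 (0.433, 0.313 to 0.586). Male and female nuclei taken alone showed the same directions for these genes. Tenm4, for example, was at 568 and 110 CPM in male and at 646 and 54.3 in female nuclei.

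GCmat2 and the nuclei without pseudo-time thus both held more Tenm2 and Tenm4 than the other GCmat1 nuclei. Adgrl3 was at 1361 CPM in GCmat2 (not called against GCmat1, log2 change 0.59 ± 0.25, adjusted p = 0.18). Trhr was at 0.641 CPM in GCmat2 and at 6.20 in all of GCmat1, and the dorsal marker Lct at 7.69 and 45.4. GCmat2 was not compared by a test with the nuclei without pseudo-time, which are from 1 library. With GCmat1 nuclei without pseudo-time left out, Tenm2 and Tenm4 were still the members called between GCmat1 and GCmat2.

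**Figure D5:**
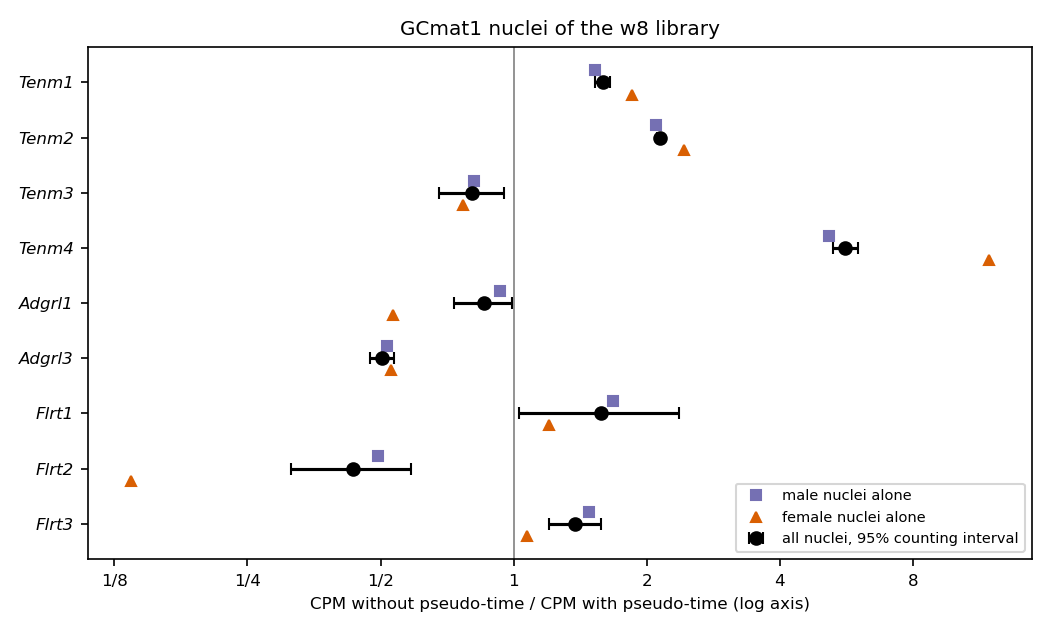
Ratio of the level (CPM) in w8 GCmat1 nuclei without pseudo-time to that in w8 GCmat1 nuclei with pseudo-time, on a log axis, for the 9 genes with UMIs in both. Black points with 95% counting intervals use all nuclei, and squares and triangles use male and female nuclei alone. Tenm4 (5.63), Tenm2 (2.14) and Tenm1 (1.59) lie above 1, and Adgrl3 (0.504) and Flrt2 (0.433) below.

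A list of 16 proteins known to bind these families or to be related to them held the Unc5 receptors, Robo1 and Fgfr1 (FLRT partners), the neurexins, Cntn6 and Shank proteins (latrophilin partners), Dag1 (a teneurin partner), the glypican Gpc3 (an Unc5 partner) and the latrophilin relative Adgrl4. Of these, 14 were tested in the trajectory model and all 16 in the model with glia. From RGL to NPC 8 of 14 were called, 3 up and 5 down, beside 29.5% of all genes, led by Unc5d (log2 change 6.08 ± 0.45, from 4.43 to 342 CPM), Nrxn3 (3.97 ± 0.24) and Fgfr1 (-1.82 ± 0.24). The Nrxn3 rise, from 44.3 to 922 CPM, stood beside shares of nuclei with a UMI, at 2000 UMIs per nucleus, of 6.71% in RGL and 11.7% in NPC. From NPC to NB1 8 of 14 were called, 7 of them up, beside 29.3%, led by Shank1 (3.06 ± 0.42), Fgfr1 (2.31 ± 0.24) and Shank2 (2.11 ± 0.27). From NB1 to NB2, where 2.94% of all genes were called, 2 of 14 rose, Unc5d (1.18 ± 0.28) and Shank3 (0.69 ± 0.18). From NB1 to GCimm1 7 of 14 were called, 5 up and 2 down, beside 12.5%, led by Unc5d (-4.90 ± 0.35, from 457 to 15.2 CPM), Cntn6 (4.34 ± 0.28) and Robo1 (1.84 ± 0.21). Unc5d, a receptor of FLRT2, thus fell at the step at which Adgrl2 and Flrt2 fell.

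In granule cells, 3 of 14 partners rose from GCimm1 to GCimm2 (Gpc3, Unc5c and Cntn6, by 3.05 ± 0.69, 1.54 ± 0.42 and 1.20 ± 0.17), where 9.43% of all genes were called. From GCimm2 to GCyoung 10 of 14 were called, 5 in each direction, beside 18.9%, led by Unc5d (3.01 ± 0.48), Unc5c (2.75 ± 0.34) and Cntn6 (-2.71 ± 0.22). From GCyoung to GCmat1 5 of 14 were called, 3 up and 2 down, beside 3.85%, led by Cntn6 (-3.29 ± 0.30), Unc5d (1.48 ± 0.34) and Nrxn3 (1.44 ± 0.24). From GCmat1 to GCmat2 7 of 14 were called, 4 up and 3 down, beside 7.30%, led by Gpc3 (1184 UMIs in GCmat1 and 3 in GCmat2, a ratio of 21.1, 7.20 to 102 by counting error), Cntn6 (3.21 ± 0.43) and Nrxn3 (2.48 ± 0.23). Flrt2 and Unc5d were thus low together in GCimm1 and GCimm2 and rose together from GCimm2 to GCyoung. Both were also called upward from RGL to NPC and from GCyoung to GCmat1. They parted at other steps: from NPC to NB1 Flrt2 fell while Unc5d was not called (0.49 ± 0.31). From NB1 to NB2 and from GCmat1 to GCmat2 Unc5d rose while Flrt2 was not called. Between astrocytes and RGL 4 of 14 were called, 1 up and 3 down, beside 9.58%, led by Shank2 (2.73 ± 0.60), Nrxn3 (-1.76 ± 0.36) and Unc5c (-1.45 ± 0.39). From RGL to OPC 8 of 16 were called, 7 up and 1 down, beside 27.8%, led by Cntn6 (7.71 ± 0.35), Nrxn3 (6.66 ± 0.27) and Unc5c (4.54 ± 0.25). From OPC to oligodendrocytes 11 of 16 were called, 10 of them down, beside 18.5%; the largest were Cntn6, Unc5b and Fgfr1. Cntn6 (324 CPM) and Fgfr1 (66.6 CPM) in OPC were at least 23.7-fold and at least 4.88-fold higher than 3 UMIs would be in oligodendrocytes, which held none. Unc5b, at 109 CPM in oligodendrocytes, was at least 24.6-fold higher than 3 UMIs would be in OPC, which also held none.

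Genes that overlap a member on the chromosome could share reads with it where counting ignores the strand, and the study's methods name default counting parameters of STARsolo, which count by strand, without naming the strand setting itself. Flrt1 lies inside Macrod1, and Flrt3 inside Macrod2, each on the opposite strand. Macrod1 went from 84.3 CPM in NPC to 434 in NB1 and from 177 in GCimm2 to 22.6 in GCyoung, changes of 2.64 ± 0.23 and -2.45 ± 0.23 that ran beside those of Flrt1. Macrod2 rose from 863 CPM in NPC to 1874 in NB1 (1.30 ± 0.23), the step at which Flrt3 rose. From GCimm1 to GCimm2 the log2 change was -0.94 ± 0.17 for Macrod1 and -0.95 ± 0.17 for Flrt1. From RGL to NPC, where Flrt1 was called, Macrod1 was not (0.44 ± 0.26, adjusted p = 0.21). The values of Flrt1 and Flrt3 are also uncertain to the extent that reads were shared with these genes, which was not tested. Inside Tenm4, the antisense RNA Gm15414 was at 44.6 CPM in NB1, 117 in NB2 and 31.4 in GCimm1. Gm10644, which overlaps Adgrl1, was at 17.4 CPM over all nuclei, and Gm16054, inside Adgrl3, at 11.1. Gm24763, inside Tenm1, was at 7.60, and each of the other overlapping features with a row in the count files was below 2 CPM.

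For the 6 genes called at 3 or more comparisons of the trajectory model, the genes most like them over its 29 sums were named, by Pearson's r of log2(CPM + 1) among 9880 genes. These sums come from 4 libraries and share them, and r is a description. Csrnp3 (r = 0.968) and Ryr3 (0.963) were most like Tenm2. A930011G23Rik (0.905) and Nol4 (0.897) were most like Tenm4. For Adgrl2 they were Rmst (0.930) and Zfp462 (0.907), and for Adgrl3 Gabrb1 (0.893) and Rassf8 (0.837). Flrt1 was followed most closely by Cnr1 (0.949) and by its host gene Macrod1 (0.939). For Flrt2 the values were lower, with Specc1 at 0.851 and Kcnip3 at 0.800.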

How the data were processed

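Single nuclei were sequenced with 10x Chromium 3′ chemistry. The deposited count files hold whole-number UMI counts per gene and barcode, made by the authors with STARsolo 2.7.4a on GRCm38 from exonic and intronic reads without multimappers. A deposited table gives log2 normalized expression, cluster, week and pseudo-time of 14367 nuclei, after the authors removed doublets, low-quality nuclei and a set of w4 nuclei that they took for a possible outlier animal. That table holds 8 of the 10 genes, not Tenm2 and Adgrl3, so the counts were used throughout and the log2 values only as an alternative. Median depth and the nuclei called male and female are given per library in the text. The sex of a nucleus was not taken from the authors but called from its counts. It was male where UMIs of Ddx3y, Uty and Eif2s3y outnumbered those of Xist and Tsix, female in the opposite case, and not called otherwise. UMIs were summed per library and deposited cluster (at least 10 nuclei) and tested with edgeR 4.0.16 (TMM, filterByExpr, quasi-likelihood, library as a term), on 29 sums and 13513 genes for the trajectory and on 39 sums and 12884 genes with glia. A call needed a fold of 1.5 or more with p 0.05 or less after Benjamini-Hochberg adjustment. The fit was also run on simulated counts with 1 fixed spread and no difference between libraries beyond depth. That run cannot show how differences between libraries affect the calls. DESeq2 1.42.0, RLE size factors, no filter, no library term, 2000 UMIs per nucleus, other nucleus minimums, 1 sex alone and leaving out each library were the main alternatives. Intervals are 95% exact Poisson or binomial ones; for a count of 0, 3 UMIs were used as the limit. The rule for named genes takes all 10 genes, and of the 16 partners at most the 3 called with the largest change; 1 further listed partner and the driver of the Cre are not reported here. Members and lists were chosen with earlier results of these data known.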

Additional observations from a re-analysis of the deposited data

Results flagged for a closer look

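Among 20 gene and cluster groups with 4 libraries, 1 held a library far from the others by Dixon's criterion. Flrt3 in OPC was at 38.3 CPM in w1, on 5 UMIs, beside 43.8, 43.8 and 44.6 CPM in the other libraries. The gap was 0.873 of the range, and chance flags about 1 in 20 such groups.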

How the results depend on the processing

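Of 48 called changes, 28 were called in the same direction under every alternative that gave a value, and no called change turned its direction. Values not called in the main test were called in 26 cases under single alternatives, among them Tenm1 from NPC to NB1 under 6 and Adgrl3 from NB1 to NB2 under 5, and values that were not called changed sign in 69 cases. By the mean deposited log2 expression per nucleus, 35 of 35 called changes that could be compared had the same direction, but on that scale the size differed by at least 1 SD between libraries for 73 values, called or not, and by less for 15. The number of the 10 genes called moved by more than 1.5 times in these cases. Between astrocytes and RGL it was 1 with DESeq2 and 1 with RLE size factors. From RGL to NPC it was 3 in female nuclei alone. From NB1 to NB2 it was 1 without the library term and between 1 and 3 with 1 library left out. From GCimm1 to GCimm2 it was 2 with a fold of 2 or more required. From GCimm2 to GCyoung it was between 3 and 5 with 1 library left out. From GCyoung to GCmat1 it was 0 without the library term, 0 with DESeq2, 0 at 2000 UMIs per nucleus, 0 in male nuclei alone, 1 in female nuclei alone, 1 with a fold of 2 or more required and 1 to 2 with 1 library left out. From GCmat1 to GCmat2 it was between 1 and 3 with 1 library left out. From OPC to oligodendrocytes it was 3 at 2000 UMIs per nucleus. Within GCmat1 of w8, 3 genes differed by at least 2-fold. The causes were not tested.

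Female nuclei alone gave no fit with glia. The comparisons between clusters were paired by library, which was a term of the model. Between weeks no pairs exist, 1 library standing for each. The restriction of GCmat1 to nuclei with pseudo-time was chosen after seeing the data. The comparisons with glia rest on 10, 16 and 13 oligodendrocytes (w2, w4 and w8), 67 astrocytes and 131 OPC nuclei. Thinning to 2000 UMIs left the 102 levels with at least 50 UMIs at a median of 1.016 times the unthinned ones (0.811 to 1.369). Some levels on fewer UMIs moved further, such as Adgrl2 in GCimm1 (1.44 to 0.616 CPM) and Flrt3 in astrocytes (17.9 to 37.3 CPM).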

Other observations

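In 2 cases a member went in opposite directions in different libraries between the same clusters, by counting intervals within each library. Tenm1 went from 34.1 to 10.7 CPM from NB1 to GCimm1 in w1 (ratio 0.313, 0.125 to 0.657) and from 31.4 to 70.8 CPM in w4 (ratio 2.26, 1.29 to 4.26). From astrocytes to RGL, Adgrl3 had a ratio of 1.17 (1.01 to 1.37) in w1 and of 0.837 (0.71 to 0.992) in w4. The difference between the libraries was not tested, and each week is 1 library.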
